A study of Mus musculus with 48 samples.

Results

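Blood clotting and the first steps of complement activation depend on proteins that the liver makes and releases into plasma, and the genes of these proteins were examined here in livers of Wfs1 mutant mice. The set was a list of 33 genes made of clotting factors, their inhibitors, the plasminogen system and the early components of the 3 complement pathways. A gene was measured where the annotation of the array gave at least 1 probeset with that gene as its single symbol. By this rule 30 of the 33 genes were measured, with 31 probesets, out of 19938 genes and 35556 probesets in the whole series. Klkb1, which encodes plasma prekallikrein, was named in a probeset that also carried another symbol and was not measured. Cpb2, the gene of an inhibitor of fibrinolysis, and C3, the component on which all complement pathways converge, were not analysed here. The factor C1s was represented by C1s1.

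Male mice of 3 genotypes were compared, with 8 mice and 8 arrays in each of 6 groups. Wild-type (WT) mice carried an intact Wfs1 gene on both chromosomes, heterozygous (HZ) mice carried 1 mutant allele, and knockout (KO) mice carried the mutant allele only. The gene encodes wolframin, which sits in the membrane of the endoplasmic reticulum. Within each genotype mice received valproic acid (VPA), an anticonvulsant that inhibits histone deacetylases, at 300 mg/kg per day, or saline at 10 mL/kg per day, by intraperitoneal injection for 12 weeks from an age of 4 to 6 weeks. All mice, saline groups included, had a glucose tolerance test 24 hours after the last injection and were killed 48 hours after that injection, at 16 to 18 weeks. The probeset of Wfs1 summarises the gene as a whole and so is no check of the genotype. Its value differed by -0.15 between KO and WT mice on the log2 scale (limma, adjusted p = 0.320), with group means from 8.28 in KO mice on saline to 8.48 in HZ mice on VPA.

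Clotting proceeds as a chain of proteases that are cut from inactive zymogens, and several of these zymogens need vitamin K for their final form. Thrombin, the last protease, turns fibrinogen into fibrin, plasmin dissolves the clot, and serpins and the protein C system hold the chain in check. Complement starts from antibody-bound C1, from mannose-binding lectins that recognise sugars on microbes, or from the alternative pathway. Hepatocytes are the main source of most of these proteins.

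Values were RMA values on the log2 scale, so that a difference of 1 is a doubling, and they allow the same gene to be compared between mice but not one gene with another. The 30 genes had high values, 24 with a mean over 11 and 9 with a mean over 13. Values of all probesets ran from 2.12 to 14.80 and array medians from 6.90 to 7.03. Whether differences and spreads are compressed near the top of this scale was not tested. The markers of hepatocytes were high in every group, with a mean over 10 genes between 13.4 and 13.9 in single mice. Liver pieces were measured as a whole, so fewer cells of a type and less RNA per cell cannot be told apart. A gene was called where its p-value, adjusted by the Benjamini-Hochberg method over all 35556 probesets of a limma fit of the 6 group means, was under 0.05. A mouse was counted above or below where its value exceeded or fell short of the mean of the compared group, taken at the same treatment for genotypes and in the same genotype for treatments.

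In KO against WT mice, averaged over both treatments, 6 of 30 genes were called, and 2.94% of all probesets were called in the same comparison. Mbl2, F7 and F2 were higher and Mbl1, C4bp and Serping1 were lower in KO mice. The genes did not move as a group, since their median difference was -0.01 and 13 of 30 differences were positive, beside a median of 0.01 over all probesets. At an unadjusted p under 0.05 the count was 11 of 30 genes, or 36.7%, beside 13.6% of all probesets. In VPA against saline, averaged over the 3 genotypes, 4 of 30 genes were called, all higher with VPA, and 8.61% of all probesets were called. These were Fga, Fgg, Pros1 and Serpinf2. Fitted alone, the 21789 probesets with 1 gene symbol gave 4.85% called in KO against WT mice and 12.4% with VPA. At an unadjusted p under 0.05 the count with VPA was 9 of 30 genes, or 30%, beside 26.1% of all probesets. The median difference with VPA was 0.02 over the 30 genes, with 21 of 30 positive, and -0.02 over all probesets. Among all probesets 1425 were called higher and 1637 lower with VPA, and after centring each array on its median 1871 higher and 860 lower.

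**Figure D1:**
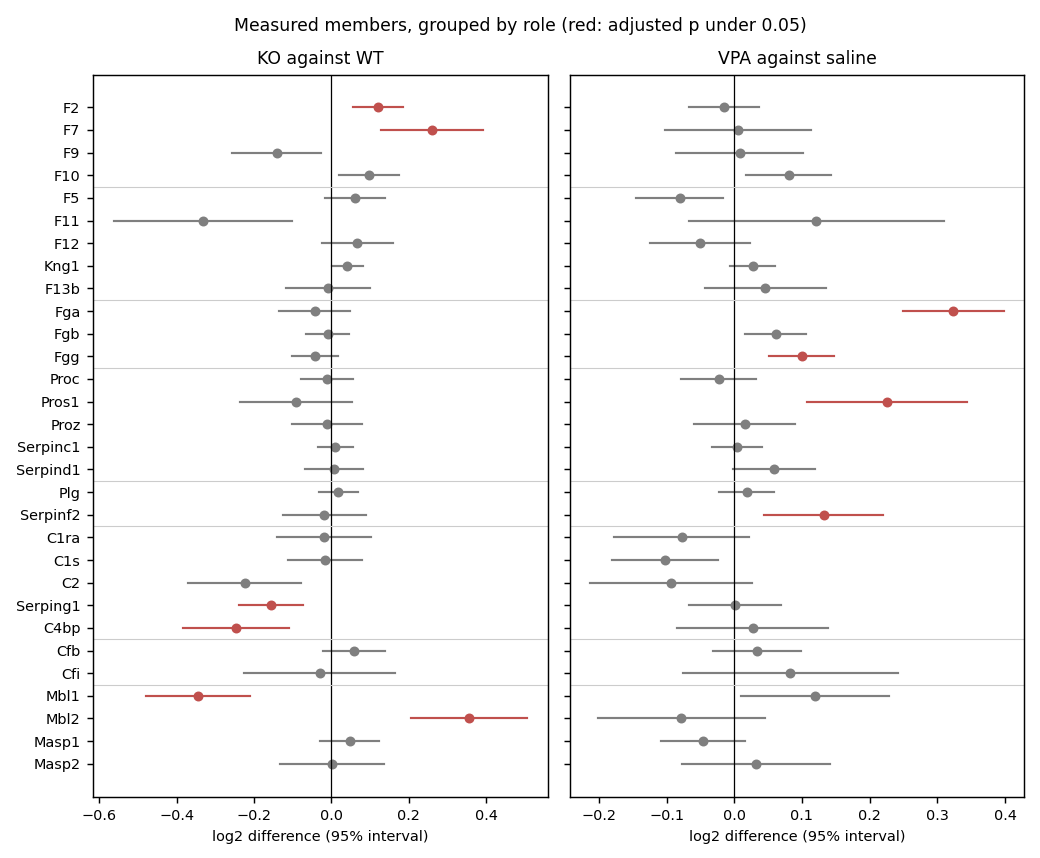
The log2 difference of KO against WT mice (left) and of VPA against saline (right) is shown for each of the 30 measured genes, with its 95% interval; lines separate the roles and red marks an adjusted p under 0.05. On the left Mbl1 at -0.34 and Mbl2 at 0.36 stand at opposite ends, with F11, which was not called, close to Mbl1. On the right Fga at 0.32 is the largest difference, followed by Pros1.

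In HZ against WT mice none of the 30 genes was called by limma, with 2 of 30 at an unadjusted p under 0.05, and 0.00281% of all probesets were called. In KO against HZ mice 3 of 30 genes were called, with 1.44% of all probesets: Mbl2 was higher, and C4bp and Serping1 were lower in KO mice. Within saline mice KO and WT differed in 2 genes, Mbl1 and Mbl2, with 0.79% of all probesets called. HZ and WT mice on saline differed in none by limma, with 4 of 30 genes at an unadjusted p under 0.05 and 0.304% of all probesets called. Between KO and WT mice on VPA none differed by limma, with 6 of 30 genes at an unadjusted p under 0.05 and 0.405% of all probesets called. The effect of VPA within WT mice was called for none of the 30 genes (2 at an unadjusted p under 0.05, and 0.0703% of all probesets called), and within KO mice also for none (3 at an unadjusted p under 0.05, and 0.0112% of all probesets called). Within HZ mice 3 of 30 genes, the fibrinogen chains, were called with VPA, a share close to the 10.5% of all probesets called there. The interaction of genotype and treatment was called for none of the 30 genes and for 0.0816% of all probesets; the 3 genes at an unadjusted p under 0.05 were again the fibrinogen chains.

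Fibrinogen is built from pairs of 3 chains, the products of Fga, Fgb and Fgg, which lie next to each other on chromosome 3 (GRCm38.p6, chr3:83007724-83049863). With VPA the transcripts of Fga and Fgg rose over the 3 genotypes, by 0.32 (SE 0.04, a 1.25-fold higher value) and 0.10 (SE 0.02, 1.07-fold), and all 3 chains rose within HZ mice. The 250 bases before each start site are shown because these 3 neighbouring genes moved in the same direction with VPA in HZ mice. They were read from RefSeq promoters of GRCm38.p6, at chr3:83025903-83026152 on the plus strand for Fga, chr3:83049864-83050113 on the minus strand for Fgb and chr3:83007474-83007723 on the plus strand for Fgg. Each is given 5′ to 3′ towards the start site, with matches to the searched letters in capitals.
Fga: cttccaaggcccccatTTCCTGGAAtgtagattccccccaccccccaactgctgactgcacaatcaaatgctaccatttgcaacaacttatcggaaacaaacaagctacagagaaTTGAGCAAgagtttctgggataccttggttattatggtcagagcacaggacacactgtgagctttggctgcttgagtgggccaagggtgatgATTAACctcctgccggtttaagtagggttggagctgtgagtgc
Fgb: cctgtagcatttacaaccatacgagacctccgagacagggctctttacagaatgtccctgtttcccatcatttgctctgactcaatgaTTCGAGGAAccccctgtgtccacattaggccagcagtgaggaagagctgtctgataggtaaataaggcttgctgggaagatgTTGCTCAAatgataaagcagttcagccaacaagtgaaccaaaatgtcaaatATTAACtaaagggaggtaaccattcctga
Fgg: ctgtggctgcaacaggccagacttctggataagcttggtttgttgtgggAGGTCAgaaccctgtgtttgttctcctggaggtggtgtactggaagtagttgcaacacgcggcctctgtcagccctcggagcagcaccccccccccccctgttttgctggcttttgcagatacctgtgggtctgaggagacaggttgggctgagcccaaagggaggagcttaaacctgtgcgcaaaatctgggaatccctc
In Fga and Fgb the capitals mark, on either strand, the letters TTCNNNGAA of a STAT3 site, TTNNGCAA of a relaxed C/EBP site and GTTAAT of an HNF1 site, where N is any base. In Fgg they mark AGGTCA, the core of sites for nuclear receptors of the ROR family, and none of the other letters was found in this window.

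Of the 30 measured genes 22 had a promoter in the RefSeq table, and the letters were searched on both strands in the same window of these and of all 27025 promoters. GTTAAT was found in 6 of 22 (27.3%, beside 6.52% of all promoters), namely in C1ra, C4bp, F13b, Fga, Fgb and Proz. TTNNGCAA was found in 5 of 22 (22.7%, beside 9.55%), TTCNNNGAA in 5 of 22 (22.7%, beside 7.18%) and AGGTCA in 7 of 22 (31.8%, beside 13.8%). The letters CACGTG of an E-box, TTATGTAA of a D-box, CAAAGTCCA of an HNF4 site and TTGCGCAA of a C/EBP palindrome were found in 0 of 22, beside 6.05%, 0.862%, 0.381% and 0.170% of all promoters. TTGCGCAA is a special case of TTNNGCAA, so the 2 overlap. Such matches describe the letters of these windows and are not evidence of binding.

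Fga, the gene of the alpha chain, had as lowest, median and highest values on saline WT 11.78, 11.84 and 11.97, HZ 11.54, 11.72 and 11.85 and KO 11.65, 11.84 and 11.99. On VPA the values were WT 11.91, 12.11 and 12.37, HZ 12.02, 12.17 and 12.58 and KO 11.92, 12.04 and 12.19. Within HZ mice the values with VPA and with saline did not overlap, and 24 of 24 VPA mice were above. The rise over the 3 genotypes had an adjusted p of 5.92e-08 in limma. A second probeset of Fga, read at a lower level, gave 0.68 (SE 0.08, adjusted p = 3.61e-07 in limma).

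Fgg, the gene of the gamma chain, had on saline WT 13.79, 13.87 and 13.93, HZ 13.67, 13.77 and 13.86 and KO 13.68, 13.87 and 13.99. On VPA it had WT 13.88, 13.95 and 13.99, HZ 13.90, 13.97 and 14.11 and KO 13.67, 13.89 and 13.94. HZ mice on saline and on VPA did not overlap, whereas KO mice on saline and on VPA covered nearly the same range. Over the 3 genotypes 21 of 24 VPA mice were above (adjusted p = 0.00685 in limma). Fgb, the gene of the beta chain, had on saline WT 13.90, 13.99 and 14.05, HZ 13.88, 13.95 and 14.01 and KO 13.93, 14.02 and 14.11. With VPA the values were WT 13.97, 14.06 and 14.11, HZ 13.96, 14.10 and 14.20 and KO 13.82, 14.03 and 14.10. The groups of Fgb overlapped in each genotype, and its difference over the 3 genotypes was 0.06 (SE 0.02, adjusted p = 0.0749 in limma).

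Within HZ mice Fga rose with VPA by 0.52 (SE 0.06, 1.43-fold, adjusted p = 3.54e-07 in limma), Fgg by 0.22 (SE 0.04, adjusted p = 0.000614) and Fgb by 0.15 (SE 0.04, adjusted p = 0.0137), with 8 of 8 mice above for each chain. The same difference for Fga was 0.24 in WT mice (adjusted p = 0.190) and 0.21 in KO mice (adjusted p = 0.323), with 8 of 8 WT mice above. The second probeset of Fga rose more in each genotype, by 0.61 in WT mice (adjusted p = 0.0928 in limma), 0.86 in HZ mice (0.000140) and 0.56 in KO mice (0.209). Its rise was larger in HZ than in WT mice by 0.25 (SE 0.21). For Fgg the difference with VPA was 0.08 in WT mice (adjusted p = 0.919) and below 0.01 in size in KO mice. The effect of VPA was larger in HZ than in WT mice by 0.28 for Fga (95% interval from 0.09 to 0.46) and by 0.14 for Fgg (from 0.02 to 0.26), but neither difference was called (adjusted p = 0.504 and 0.600 in limma). In the test of the interaction adjusted p was 0.282 for Fga, 0.269 for Fgg and 0.474 for Fgb, so a difference of the chains between genotypes was not shown. HZ mice on saline had the lowest mean of Fga among the 6 groups, 0.15 below WT mice on saline (adjusted p = 0.402), and HZ mice on VPA had the highest. The saline HZ group differed from saline WT mice in other genes too, with 0.304% of all probesets called, among them 5 of the 14 clock genes, and the part of this in the calls within HZ mice was not tested.

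**Figure D2:**
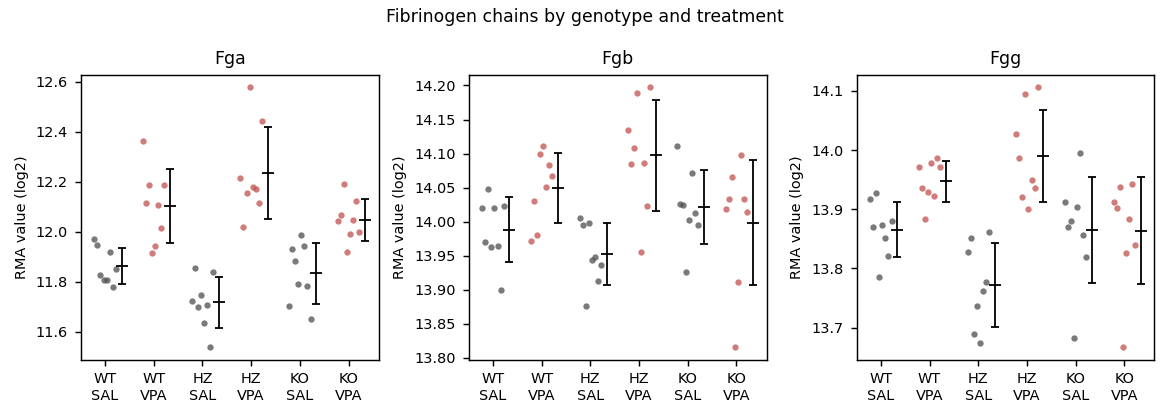
RMA values on the log2 scale of Fga, Fgb and Fgg are shown for each of 8 mice per group (points, grey for saline and red for VPA), with the group mean and SD beside them. The 8 HZ mice on VPA lie above all 8 HZ mice on saline for Fga and Fgg.

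The size of the rise with VPA rested in part on HZ mice for Fgg, Fga and Serpinf2, and little for Pros1. Without them, an alternative added after the data had been seen under which 0.219% of all probesets were called with VPA, Fga still rose by 0.23 (adjusted p = 0.0119 in limma), while Fgg differed by 0.04 (adjusted p = 0.755), Pros1 by 0.20 (adjusted p = 0.375) and Serpinf2 by 0.09 (adjusted p = 0.619). In KO against WT mice the chains differed by -0.04 for Fga, -0.01 for Fgb and -0.04 for Fgg, and none was called.

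Mannose-binding lectins are soluble pattern receptors that open the lectin pathway, and mice have 2 of them, encoded by Mbl1 on chromosome 14 (chr14:41151456-41163904) and Mbl2 on chromosome 19 (chr19:30232906-30239687). Between KO and WT mice Mbl1 fell by 0.34 (SE 0.07, adjusted p = 0.000967 in limma) and Mbl2 rose by 0.36 (SE 0.07, adjusted p = 0.00266), so these paralogs changed in opposite directions. The 250 bases before the start site of the RefSeq promoter table are shown because the pair was called with opposite signs (GRCm38.p6, plus strand, chr14:41151206-41151455 and chr19:30232678-30232927). For Mbl2 that start site lies within the gene span given above, so the last bases of its window do too.
Mbl1: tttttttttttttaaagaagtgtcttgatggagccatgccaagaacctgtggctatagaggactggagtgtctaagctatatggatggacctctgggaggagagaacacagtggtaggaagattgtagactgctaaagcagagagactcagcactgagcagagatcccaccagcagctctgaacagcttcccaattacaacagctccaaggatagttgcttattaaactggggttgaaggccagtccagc
Mbl2: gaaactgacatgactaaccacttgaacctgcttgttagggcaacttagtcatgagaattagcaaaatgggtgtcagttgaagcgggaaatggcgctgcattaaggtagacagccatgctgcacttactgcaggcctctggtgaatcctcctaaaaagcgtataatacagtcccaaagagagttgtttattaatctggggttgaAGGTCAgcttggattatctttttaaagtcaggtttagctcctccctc
The capitals in Mbl2 mark AGGTCA, and none of the searched letters was found in the window of Mbl1.

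Mbl1 had as lowest, median and highest values on saline WT 11.56, 11.63 and 11.96, HZ 11.13, 11.41 and 11.60 and KO 10.75, 11.29 and 11.75. On VPA the values were WT 11.48, 11.72 and 11.75, HZ 11.52, 11.67 and 11.80 and KO 11.00, 11.37 and 11.73. KO mice spread more widely than the other genotypes and reached further down, and the ranges overlapped with WT on both treatments. Of 16 KO mice 14 were below. Mbl2 had on saline WT 9.81, 10.24 and 10.46, HZ 9.98, 10.41 and 10.67 and KO 10.31, 10.62 and 10.87. VPA groups had WT 10.03, 10.20 and 10.60, HZ 9.93, 10.26 and 10.49 and KO 10.25, 10.42 and 10.79. KO and WT mice overlapped here too, but 16 of 16 KO mice were above.

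Within saline mice the difference between KO and WT was -0.38 for Mbl1 (SE 0.09, adjusted p = 0.0344 in limma) and 0.44 for Mbl2 (SE 0.11, adjusted p = 0.0258). These calls were lost when any of 7 of the 48 mice was left out for Mbl1, and any of 6 for Mbl2. Within VPA mice the difference was -0.31 for Mbl1 (adjusted p = 0.163) and 0.27 for Mbl2 (adjusted p = 0.405), in the same directions. The effect of VPA did not differ detectably between KO and WT mice for either gene, by 0.07 for Mbl1 (95% interval from -0.20 to 0.34) and by -0.17 for Mbl2 (from -0.47 to 0.13). HZ mice on saline lay between WT and KO mice in both means, yet neither lectin was called in HZ against WT mice. Against HZ mice, KO mice had Mbl2 higher by 0.28 (SE 0.07, adjusted p = 0.0448 in limma), and this call was lost when any of 19 of the 48 mice was left out. Mbl1 differed there by -0.20 (adjusted p = 0.150).

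The contrast between the lectins within a mouse, Mbl2 minus Mbl1, was taken after both results had been seen and is given without a test. Its absolute size depends on the probes, and only its shift between groups can be read. On saline it came to -1.48 ± 0.22 for WT, -1.03 ± 0.33 for HZ and -0.66 ± 0.47 for KO mice, and -1.45 ± 0.27, -1.45 ± 0.24 and -0.87 ± 0.32 on VPA (mean ± SD, n = 8). KO mice had the highest mean on each treatment, and the HZ mean stood apart from the WT mean on saline alone.

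**Figure D3:**
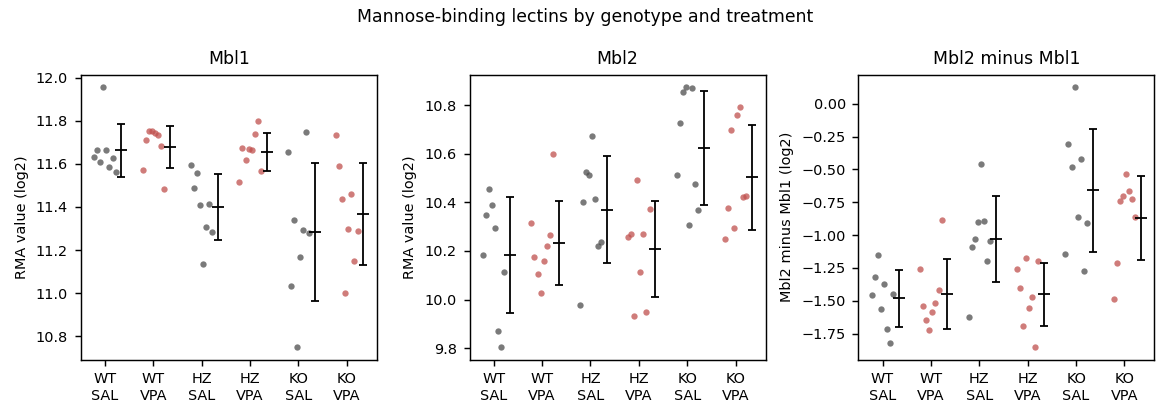
RMA values on the log2 scale of Mbl1 and Mbl2, and their difference within each mouse, are shown for 8 mice per group (points, grey for saline and red for VPA) with the group mean and SD. KO mice lie lower for Mbl1 and higher for Mbl2, and their difference rises from -1.48 in WT to -0.66 in KO mice on saline.

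The proteases that travel with the lectins did not pass the test. Masp1 and Masp2, which cut the next complement components, differed by 0.05 and less than 0.01 between KO and WT mice, and by -0.05 and 0.03 between VPA and saline.

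Among the vitamin K-dependent zymogens F2 and F7 rose in KO mice. F2, the gene of prothrombin (chr2:91612397-91636457), had on saline WT 12.96, 13.11 and 13.15, HZ 13.03, 13.10 and 13.18 and KO 13.09, 13.22 and 13.38. Under VPA the figures were WT 12.96, 13.04 and 13.20, HZ 12.98, 13.11 and 13.30 and KO 13.08, 13.17 and 13.23. The ranges overlapped, but 16 of 16 KO mice were above. The difference was small in size, 0.12 (SE 0.03, 1.09-fold), with an adjusted p of 0.0218 in limma.

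F7 encodes factor VII, which starts clotting together with tissue factor (chr8:13025506-13035809). Its values on saline were WT 10.03, 10.15 and 10.40, HZ 10.06, 10.45 and 10.66 and KO 10.07, 10.48 and 10.83. On VPA they were WT 10.16, 10.24 and 10.47, HZ 9.99, 10.38 and 10.60 and KO 10.20, 10.49 and 10.72. KO mice reached higher than WT mice on both treatments, with HZ means in between, and 14 of 16 KO mice were above. The difference was 0.26 (SE 0.07, 1.2-fold, adjusted p = 0.0164 in limma). F10, the gene of factor X next to F7 on chromosome 8, differed by 0.10 (SE 0.04, adjusted p = 0.206), and F9, the X-linked gene of factor IX, by -0.14 (SE 0.06, adjusted p = 0.213). With VPA none of the 4 zymogens was called, and F10 came nearest with 0.08 (adjusted p = 0.0961).

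In the group of F5, F11, F12, Kng1 and F13b no call was made. F11, the gene of factor XI, which amplifies thrombin formation, had the smallest unadjusted p of this group. Its values on saline were WT 10.28, 10.71 and 11.24, HZ 10.36, 10.59 and 10.76 and KO 9.71, 10.25 and 10.73. On VPA they were WT 10.34, 10.53 and 10.97, HZ 10.30, 10.93 and 11.25 and KO 9.47, 10.51 and 10.82. The groups overlapped widely, and F11 had the largest spread within groups of all 30 genes (pooled SD 0.33). It differed by -0.33 between KO and WT mice (SE 0.11, adjusted p = 0.115 in limma) and by -0.38 between KO and HZ mice (adjusted p = 0.0940). Factor V (F5), the cofactor of factor X, differed by 0.06 in KO mice and by -0.08 with VPA (adjusted p = 0.0984). Factor XII (F12), kininogen (Kng1) and the carrier subunit of factor XIII (F13b) differed by 0.07, 0.04 and -0.01 in KO mice and by -0.05, 0.03 and 0.05 with VPA. Kng1 had the smallest spread within groups, with a pooled SD of 0.03, at a mean of 14.05 near the top of the scale.

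Of the anticoagulants only Pros1 was called, with VPA. It encodes protein S, the cofactor of activated protein C (chr16:62854307-62929346), and its values on saline were WT 9.36, 9.73 and 9.82, HZ 9.43, 9.69 and 9.95 and KO 9.11, 9.55 and 9.90. On VPA they were WT 9.36, 9.86 and 10.20, HZ 9.77, 9.92 and 10.16 and KO 9.58, 9.74 and 10.01. The treatments overlapped within each genotype, yet 23 of 24 VPA mice were above. The rise was 0.23 (SE 0.06, 1.17-fold, adjusted p = 0.0112 in limma), made up of 0.17 for WT, 0.28 for HZ and 0.22 for KO mice. Protein C (Proc), protein Z (Proz), antithrombin (Serpinc1) and heparin cofactor II (Serpind1) were not called in any comparison. Their differences with VPA ran from -0.02 for Proc to 0.06 for Serpind1, and between KO and WT mice from -0.01 for Proz to 0.01 for Serpinc1.

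Fibrinolysis was represented by Plg, the gene of plasminogen, and by Serpinf2, the gene of alpha-2-antiplasmin, the main inhibitor of plasmin (chr11:75431736-75439501). Serpinf2 had on saline WT 12.78, 13.09 and 13.42, HZ 12.94, 13.04 and 13.26 and KO 12.91, 13.09 and 13.20. On VPA it had WT 13.07, 13.13 and 13.36, HZ 12.89, 13.32 and 13.52 and KO 13.03, 13.15 and 13.39. The treatments overlapped in every genotype and 18 of 24 VPA mice were above. Its rise of 0.13 (SE 0.04, adjusted p = 0.0485 in limma) was close to the threshold, and the call was lost when any of 29 of the 48 mice was left out, with differences from 0.12 to 0.15. Plg differed by 0.02 in either comparison.

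In the classical pathway C1 is a complex of a recognition part with the proteases C1r and C1s. Serping1, the gene of the C1 inhibitor that also restrains factor XII and kallikrein (chr2:84765360-84775444), had on saline WT 12.95, 13.04 and 13.19, HZ 13.04, 13.10 and 13.26 and KO 12.75, 12.94 and 13.08. With VPA the values were WT 12.99, 13.12 and 13.16, HZ 12.87, 13.14 and 13.30 and KO 12.63, 12.91 and 13.04. KO mice reached lower than both other genotypes on each treatment, and the ranges overlapped. In KO mice Serping1 fell by 0.16 against WT mice (SE 0.04, adjusted p = 0.0218 in limma; 13 of 16 below) and by 0.21 against HZ mice (SE 0.04, adjusted p = 0.00152; 16 of 16 below).

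C4bp, whose product binds C4b and limits the classical and lectin pathways (chr1:130635921-130661657), had on saline WT 12.43, 12.65 and 12.82, HZ 12.55, 12.68 and 12.82 and KO 12.17, 12.34 and 12.69. VPA groups had WT 12.39, 12.72 and 12.87, HZ 12.38, 12.67 and 13.09 and KO 12.06, 12.43 and 12.71. KO mice again lay lower with some overlap. Against WT mice C4bp of KO mice fell by 0.25 (SE 0.07, adjusted p = 0.0302 in limma; 13 of 16 below) and by 0.30 against HZ mice (SE 0.07, adjusted p = 0.0105; 14 of 16 below). The call against WT mice was lost when any of 10 of the 48 mice was left out. Both Serping1 and C4bp encode regulators that slow complement. C2, the protease that joins C4b, stood in the same comparison at -0.22 (SE 0.07, adjusted p = 0.0864 in limma), with 14 of 16 mice below. C1ra and C1s differed by -0.02 and -0.02 in KO mice and by -0.08 and -0.10 with VPA (adjusted p = 0.0855 for C1s). C1ra, C1s1 and Kng1 each have a close paralog in mice, and how the probes divide between the copies was not tested.

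The alternative pathway was represented by Cfb, the gene of factor B, and Cfi, the gene of the protease factor I, which inactivates C3b and C4b. Cfb had the smaller unadjusted p, and its values on saline were WT 12.17, 12.39 and 12.49, HZ 12.28, 12.37 and 12.59 and KO 12.40, 12.49 and 12.65. On VPA they were WT 12.38, 12.48 and 12.51, HZ 12.27, 12.44 and 12.80 and KO 12.34, 12.44 and 12.52. The groups overlapped, and the largest difference, 0.14 between KO and WT mice on saline, had an adjusted p of 0.358 in limma. Cfi differed by -0.03 in KO mice and by 0.08 with VPA.

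**Figure D4:**
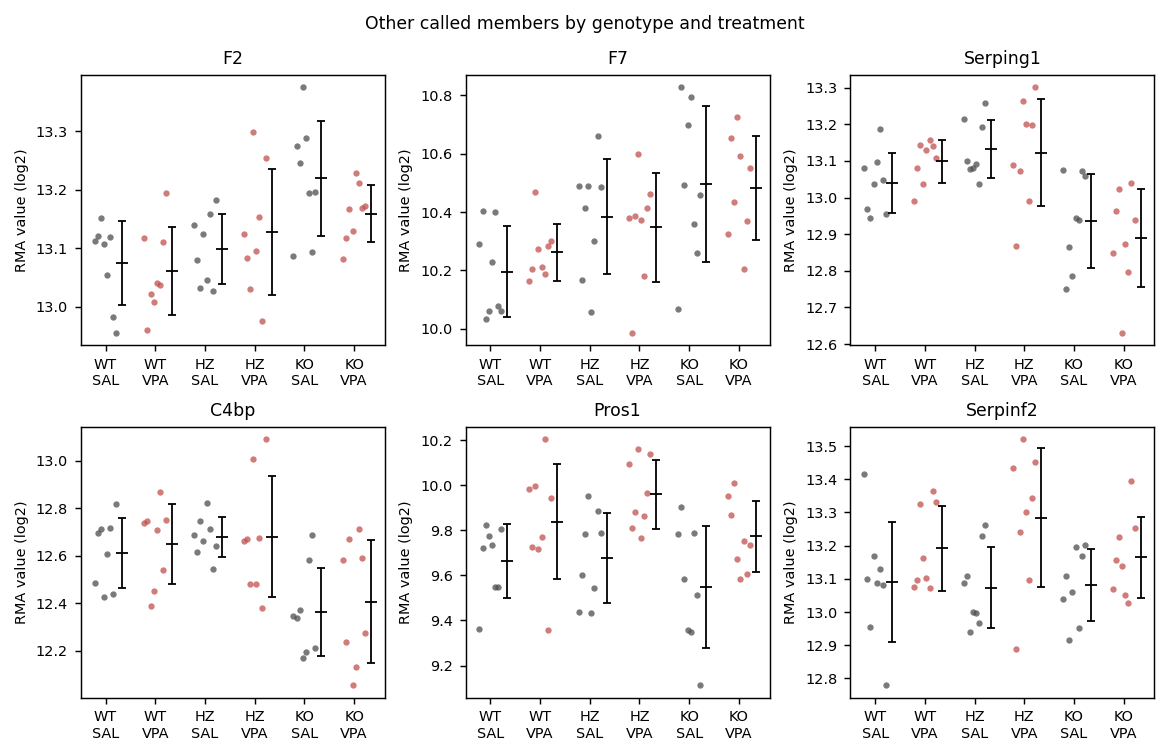
RMA values on the log2 scale of the 6 other called genes are shown for 8 mice per group (points, grey for saline and red for VPA) with the group mean and SD. F2 and F7 are higher and Serping1 and C4bp lower in KO mice, and Pros1 and Serpinf2 are higher with VPA, with overlap between groups in each panel.

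Other states of the liver moved with the same groups. Clock genes were called in 13 of 14 measured with VPA (3 higher, 10 lower) and in 9 of 14 in KO against WT mice (7 higher, 2 lower). An index of clock phase per mouse, made from these 14 genes, was entered as a covariate. With it none of the 30 genes was called for VPA (Fga 0.25, adjusted p = 0.731; Fgg 0.04, 0.883; Pros1 0.10, 0.876; Serpinf2 0.23, 0.731) and none within HZ mice. Of all 35556 probesets 0 were called in either comparison with the index (0% in place of 8.61% and 10.5%), so the absence of calls was shared by all genes on the array. For KO against WT mice 3 of 30 genes were called with it, beside 287 of 35556 probesets (0.807%), Mbl2 at 0.40 (adjusted p = 0.0347), Serping1 at -0.20 (0.0475) and C2 at -0.35 (0.0464). Mbl1 differed by -0.25 (0.180), F7 by 0.20 (0.340), F2 by 0.12 (0.206) and C4bp by -0.25 (0.200). The index itself moved with the groups, so its part and that of the groups cannot be told apart.

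Markers of Kupffer cells rose with VPA in 6 of 12 (median 0.35), and their mean level ran from 7.99 to 9.45 in mice on VPA and from 8.01 to 9.24 in mice on saline. Markers of liver endothelium rose in 4 of 9 (median 0.16), those of stellate cells in 2 of 8, of 8 neutrophil markers 1 rose and 1 fell, and of hepatocyte markers Pck1 and Tat fell. Within HZ mice, where the fibrinogen chains rose, the counts were 8 of 12 for Kupffer cells, 7 of 9 for endothelium and 4 of 8 for stellate cells. Of all probesets 8.61% were called with VPA, 10.5% with VPA within HZ mice and 1.44% in KO against HZ mice. In KO against WT mice no marker of Kupffer, endothelial, stellate or hepatocyte lists was called, and of 7 platelet markers Itgb3 was higher, by 0.22. The part of these cells in the differences with VPA was not tested. Acute phase genes, made by hepatocytes in inflammation, were called lower in KO against HZ mice in 6 of 16 (Saa1 -2.30, Saa2 -2.33, Lcn2 -1.37, Saa3 -0.51, Saa4 -0.40 and Hp -0.29), beside the calls of Serping1, C4bp and Mbl2 there, and their part in those was not tested. In the same comparison the endothelial markers Kdr and Fcgr2b were higher in KO mice by 0.23 and 0.29 and the stellate cell marker Reln by 0.23, and the part of these cells was not tested either. With VPA Itih3 and Stat3 rose by 0.19 each and Il6ra fell by 0.31, and in KO against WT mice Saa4 fell by 0.30 and Socs3 rose by 0.25.

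Genes that act beside the 30 in the same pathways were examined as lists. Beside their counts, 2.94% of all probesets were called in KO against WT mice, 8.61% with VPA and 10.5% with VPA within HZ mice. Of 18 other clotting and fibrinolysis genes, S100a10, which with Anxa2 forms a cell-surface receptor for plasminogen, fell by 0.47 in KO against WT mice (adjusted p = 0.000406 in limma) and rose by 0.41 with VPA (adjusted p = 0.000101). By genotype its rise with VPA was called within KO mice (0.68) but not within WT or HZ mice. Its difference between KO and WT mice was called on saline (-0.67) but not on VPA. No difference between genotypes in its VPA effect was called. Anxa2 rose by 0.20 with VPA, and Hgfac, a relative of factor XII, rose by 0.30 in KO mice. Of 7 genes of the vitamin K cycle and factor secretion, Ggcx, the carboxylase that finishes the vitamin K-dependent zymogens, rose by 0.24 with VPA (adjusted p = 0.00448), and Nqo1, a quinone reductase, rose by 0.53 in KO mice (adjusted p = 0.0137). The 10 measured transcription factors of liver genes were called with VPA in 3, all lower (Cebpa by -0.32, Nr1h4 by -0.25 and Prox1 by -0.20), and in KO mice in 1, Nr5a2 at 0.17. Within HZ mice Foxa3 was called higher with VPA, by 0.60. Called lower there were Onecut1 (-1.16), Cebpa (-0.41), Cebpb (-0.40) and Nr1h4 (-0.40).

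Of 23 other complement genes 6 were called in KO against WT mice, all lower. They included 4 genes of the terminal pathway that forms the membrane attack complex: C6 fell by 1.92 (adjusted p = 6.11e-07 in limma), C9 by 1.14, C8a by 0.88 and C8b by 0.62. C4a fell by 0.39, and its near copy C4b was not called there. Against HZ mice both were called lower, C4a at -0.50 and C4b at -0.21, with 16 of 16 KO mice below for each. How the probes divide between these copies was not tested. Clu, an inhibitor of the membrane attack complex, fell by 0.17 against WT mice. With VPA 5 of the 23 were called: C1qb rose by 0.46, C1qc by 0.39, C3ar1 by 0.39 and Cfp by 0.30, and Colec11, a soluble lectin, fell by 0.29. C1qb and C1qc are also on the list of Kupffer cell markers.

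Pairs of genes were then followed from mouse to mouse, as deviations from the group mean over 48 mice, with permutation tests within groups. Of 9 listed pairs 8 were measured. Fgb and Fgg varied together (Pearson r = 0.75, Spearman rho = 0.72), and so did the neighbours F7 and F10 (r = 0.61, rho = 0.58), each with an adjusted p for r of 8e-05 in the permutation test (raw p = 1e-05, the smallest it can give, and 2e-05). For rho the adjusted permutation p was 8e-05 for the first pair and 0.00024 for the second. Fga and Fgg gave r = 0.52 and rho = 0.55 (raw permutation p = 0.00023 and adjusted p = 0.000613 for r, adjusted p = 0.000427 for rho). Without the 2 mice farthest from the median of the first gene r was 0.68, 0.53 and 0.49 in the same order. Within the 24 saline mice r was 0.69, 0.65 and 0.48, with an adjusted permutation p of 0.00656, 0.00776 and 0.0968, so Fga and Fgg did not pass the test there, and within the 24 VPA mice 0.82, 0.59 and 0.56. Fga and Fgb gave r = 0.25 and rho = 0.25 (adjusted permutation p = 0.191 for r and 0.165 for rho), which became 0.38 (adjusted p = 0.0226) after each array was centred on its median.

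The lectins Mbl1 and Mbl2 gave r = -0.23 (rho = -0.16, adjusted permutation p = 0.206 for r), C2 and Cfb r = 0.28 (rho = 0.25, 0.147), C1ra and C1s r = 0.06 (rho = -0.04, 0.802), and Fgb with the acute phase gene Lcn2 r = -0.04 (rho = -0.16, 0.802). None of these 4 passed the test, and for rho the adjusted permutation p ran from 0.165 to 0.777. Over all 435 pairs of the 30 genes, described without a test since the points share their arrays, the median r was 0.15, with 47 pairs over 0.5 and 8 under -0.5.

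**Figure D5:**
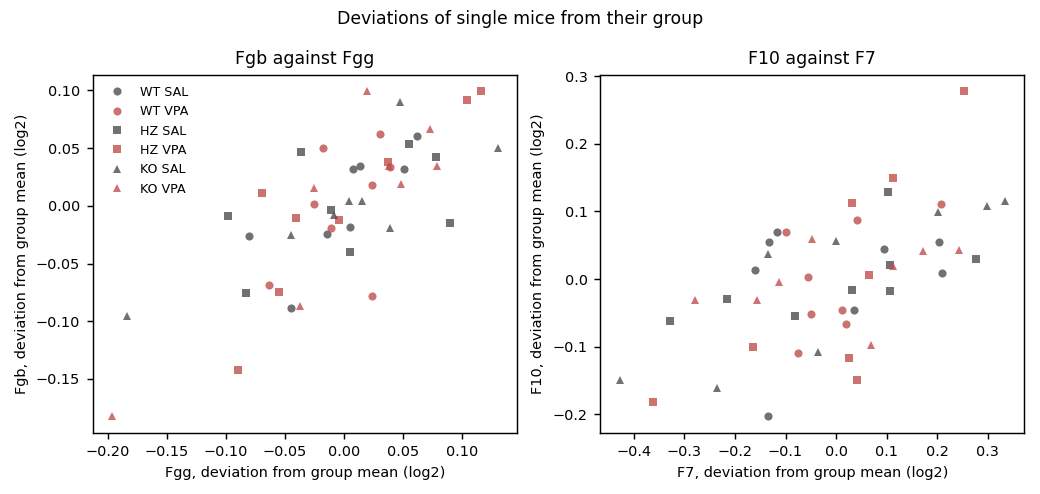
Each point is 1 of 48 mice, placed by its deviation from the mean of its group on the log2 scale, for Fgb against Fgg (left) and F10 against F7 (right); colour gives the treatment and shape the genotype. Both clouds rise to the right, with r of 0.75 and 0.61.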

How the data were processed

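Liver RNA of 48 mice was hybridised to Affymetrix Mouse Gene ST arrays, 1 array per mouse. The deposited log2 values were made by the authors with RMA (Affymetrix Expression Console, version 1.1.2800.28061), a method that corrects background, equalises the distribution of the arrays by quantiles and summarises each probeset. Quantile normalization can hide a shift shared by most genes. No further normalization was applied, and the number of arrays limits the precision. Genotype and treatment were taken from the sample labels.

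A mean for each of 6 groups was fitted to all 35556 probesets with limma 3.58.1 in R 4.3.3 (42 residual degrees of freedom), tests were two-sided, and Benjamini-Hochberg adjustment ran over all probesets of a comparison. A gene with several single-symbol probesets was represented by the one with the highest mean. All members are named, with group values for called members and, in a role without a call, for the member with the smallest unadjusted p. The members and all lists were chosen with earlier results of these data known, so their counts are descriptions. Mouse numbers were not taken as pairs, since equal numbers are not known to mark shared litters or days. Residuals of equally numbered mice correlated over 0.1 in 53 of 120 pairs of arrays. Their mean correlation was 0.05, beside -0.01 for mice with other numbers. Pairs of genes were tested with 100000 permutations within groups in Python 3.11.15 and adjusted over the 8 measured pairs. The fit was tested on simulated data. Alternatives were array weights, centring on array medians, other sets of probesets, the mouse number as a block, no moderation, only the compared arrays, stricter thresholds, those of the study, a clock index and leaving out each mouse.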

Additional observations from a re-analysis of the deposited data

Results flagged for a closer look

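In 9 of 180 sets of 8 mice (30 genes in 6 groups) 1 mouse stood far from the others of its group, with a gap to the next mouse of more than 0.526 of the whole range. Chance alone gives this in about 1 in 20 such sets. On the log2 scale the highest mice were WT VPA replicate 3 for F7 (10.4691) and for Masp1 (12.1106), WT VPA replicate 4 for Kng1 (14.1006) and WT SAL replicate 4 for Mbl1 (11.9553). The lowest were KO VPA replicate 4 for F11 (9.47385) and for Fgg (13.6678), WT SAL replicate 8 for F10 (11.3208), WT VPA replicate 2 for C1ra (9.30658) and KO SAL replicate 8 for C1s (11.4539). No mouse was flagged for more than 2 genes.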

How the results depend on the processing

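All 18 called differences kept their direction under every alternative. Only array weights, centring, the clock index and leaving out mice can change an estimate, so the other settings could not reverse one. In KO against WT mice the count of 6 (1046 of 35556 probesets) became 2 at an adjusted p under 0.01 (478) and 3 with the clock index (287). In KO against HZ mice 3 (512) became 1 at 0.01 (235) and 4 with the clock index (C2 added, 509). Within saline mice 2 (281) became 0 with array weights (169), with only the compared arrays (19) and at 0.01 (85), and 1 with the clock index (253). For genotypes the thresholds of the study also ask for a log2 difference of more than 1 in size. Group means of the 30 genes lay at most 0.61 apart (F11), so the count of 0 in these 3 comparisons was fixed in advance. Over all probesets these thresholds called 65 in KO against WT, 57 in KO against HZ and 66 within saline mice. With VPA the count of 4 (3062) became 2 at 0.01 (1056), 0 with the clock index (0) and 1 without the HZ mice (78). Within HZ mice 3 (3726 of 35556 probesets) became 9 with array weights (6754), 7 after centring (3203), 6 with only probesets of 1 gene symbol (3271 of 21789), with 1 probeset per gene (3090 of 19938) or with only the compared arrays (4617 of 35556), and 0 with the clock index (0). The thresholds of the study gave 1 gene (Fga) within WT mice (147 in place of 25 probesets) and 2 (Fga and Fgg) for the interaction (362 in place of 29). Mbl2 in KO against HZ mice lost its call in 6 of 12 settings: array weights, centring, no moderation, only the compared arrays, 0.01 and the study's thresholds, the last fixed in advance. Within saline mice Mbl1 lost its call in 5 of 12 settings and Mbl2 in 4. F2 and C4bp in KO against WT mice and Serpinf2 with VPA each lost theirs in 4 of 12. The remaining called differences lost theirs in fewer settings. For genotypes these losses include the study's thresholds. The clock index moves with the groups, so fewer calls with it cannot be told apart from a loss of contrast. Apart from the counts fixed in advance, the cause of the other changes was not tested. Leaving out each mouse in turn gave 5 to 7 calls in KO against WT, 2 to 6 in KO against HZ (6 without KO SAL replicate 7), 0 to 3 in KO against WT within saline (0 without KO SAL replicate 2 or 4), 3 to 5 with VPA and 3 to 5 within HZ mice. With the mouse number as a replicate block the counts were 6 in KO against WT, 3 in KO against HZ and 4 with VPA, as without it. Within HZ mice the count was 4 in place of 3. Over all probesets the calls rose with the block, from 1046 to 1231 in KO against WT and from 512 to 570 in KO against HZ. With VPA they rose from 3062 to 4004, and within HZ mice from 3726 to 4933. Equal numbers are not known to mark shared litters or days, and what they share was not tested.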

Other observations

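The genes that varied most alike from mouse to mouse were not always neighbours or partners in a pathway. After Fgb and Fgg, the largest r of deviations from group means over 48 mice were 0.73 for F11 with Serpind1, 0.73 for Fgb with Cfi, 0.72 for F13b with C1s, 0.72 for F5 with Serpind1, 0.70 for F5 with F11 and 0.70 for F9 with F13b. The most negative were -0.65 for F9 with Serpinf2, -0.61 for C1s with Masp2, -0.59 for F13b with Masp2 and -0.55 for C4bp with Masp2. These pairs were picked from 435 for their size, their points share arrays, and no test was made.

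Saline HZ mice differed from saline WT mice outside the clotting and complement genes. Lcn2, an acute phase gene of the liver, was higher by 1.98 (adjusted p = 0.0457 in limma; 8 of 8 mice above). Fcgr2b, a marker of liver endothelium, was lower by -0.44 (adjusted p = 0.0273; 8 of 8 below) and Reln, a marker of stellate cells, by -0.35 (adjusted p = 0.0360; 8 of 8 below). Of 14 clock genes 5 were called, with Ciart higher by 2.00, Per3 by 1.13 and Tef by 0.59, and Arntl at -0.98 and Clock at -0.68. None of the 30 clotting and complement genes was called in that comparison by limma, with 4 at an unadjusted p under 0.05.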
